A study of Mus musculus with 768 samples.

Results

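Most subunits of the oxidative phosphorylation complexes are encoded in the nucleus, and the 86 genes described here are the rows of both count tables whose names begin with Nduf and a subunit letter and number, with Sdha to Sdhd, or with Uqcr, Uqcc, Cox4 to Cox8 or Atp5. Rows named as pseudogenes were left out. The 86 genes are 86 of the 23997 gene names that the tables hold besides the eGFP reporter. Of these, 37 were assigned by name to complex I, 4 to complex II, 8 to complex III, 2 to the assembly of complex III, 18 to complex IV and 17 to complex V. No measured value entered the choice.

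The 5 complexes sit in the inner mitochondrial membrane. Complex I takes electrons from NADH, complex II takes them from succinate and also works in the tricarboxylic acid cycle, complex III passes them to cytochrome c, and complex IV passes them to oxygen. The proton gradient that complexes I, III and IV build drives ATP synthase, complex V. Several core subunits of complexes I, III, IV and V come from the mitochondrial genome, which has no rows in the tables, whereas complex II is wholly nuclear. In the lactating mammary gland this pathway supplies the ATP for milk synthesis by alveolar cells.

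The 2 plates of 384 wells each were compared, each well holding 1 sorted cell processed by Smart-Seq2, a full-length method without molecular identifiers. The control plate held tdTomato-positive cells of WAP-CRE; R26-tdTomato mice, and the N1ICD-EGFP plate held GFP-positive cells of WAP-CRE; R26-N1ICD-EGFP mice, which express the intracellular, active part of the Notch1 receptor. Both kinds of mouse were C57BL/6, the tissue was dissociated inguinal mammary gland, and the series design gives a lactation of 3 to 4 months. In both, Cre was driven by the promoter of whey acidic protein, a milk protein gene of secretory luminal cells, so only cells with past or present activity of that promoter, and their progeny, should carry the reporter. The labels name no animal. Each genotype was therefore 1 plate, no test between plates was possible, and what the genotype, the plate or the reporter contributed cannot be told apart.

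After the filter of at least 50000 reads and 1000 genes, the control cells held 50048 to 608476 reads each and the N1ICD-EGFP cells 51736 to 615615. Levels are CPM, the share of a group's summed reads that fell in a gene, as parts per 1000000. Each plate was also split into well columns 1 to 12 and 13 to 24, called its left and right side; a difference was read against the spread between these sides, which share a plate and are not replicates. No 2 cells of a plate held identical values. Clusters were named from marker genes. Of the control and N1ICD-EGFP cells, 61.7% and 64.7% were luminal progenitor/secretory-like (Kit, Elf5, Ltf and casein genes), and 65 and 7 cells were hormone-sensing luminal-like (Prlr, Pgr, Esr1 and Foxa1). A further 24 and 48 cells were immune-like (Ptprc and Laptm5) and so outside the luminal lineage in which the whey acidic protein promoter is active, 7 control cells were basal-like, and 32 and 45 cells fell into clusters that were left unnamed. The eGFP row held 64 reads on the control plate and 3095 on the N1ICD-EGFP plate.

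Reads in the 86 genes made up 13592 CPM of the control plate and 12443 CPM of the N1ICD-EGFP plate, from 1100268 and 1211271 reads. Complexes I and V held the most, at 4501 and 4540.0 CPM on the control plate, followed by complex IV at 2160.3, complex III at 1424 and complex II at 886 CPM. Since Smart-Seq2 covers whole transcripts, levels of different genes were compared per kilobase of transcript, over the general genes at 10 CPM or more. The median of complex V was 224.2 CPM per kilobase over 14 genes, and that of complex IV was 262.7 over 10 genes. Complex I had a median of 146.4 CPM per kilobase over 34 genes, complex III of 187.3 over 8 and complex II of 125.1 over 4. The genes assigned by name to complexes IV and V thus had higher medians per kilobase than those of complexes I and II. The ranges inside each complex were wide.

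Cox4i1, the ubiquitous form of subunit 4 of cytochrome c oxidase, had the highest level per kilobase on both plates, at 874 and 876 CPM per kilobase. Atp5b, the catalytic beta subunit of the ATP synthase head, followed at 843 and 763. Ndufa4, a subunit first counted with complex I and since placed in complex IV, was next at 820.4 and 589 CPM per kilobase. In complex III the hinge protein gene Uqcrh led at 465 and 424. The lowest of the general genes were Atp5s, at 24 and 19.2, and the complex III assembly gene Uqcc1, at 20.8 and 27.1 CPM per kilobase. Atp5s is named for coupling factor B of ATP synthase but was classed here as not a subunit.

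A median control cell had reads in 58.5 of the 86 genes and a median N1ICD-EGFP cell in 46, although the N1ICD-EGFP cells were sequenced more deeply (a median of 348469 against 241888 reads). With every cell thinned to 50000 reads the medians were 53 and 40 genes. All genes together showed the same order, with a median of 3598 genes per control cell and 2482 per N1ICD-EGFP cell before thinning.

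Of the 86 genes, 85 had at least 1 read on the control plate and 83 on the N1ICD-EGFP plate, and 77 reached 5 CPM on at least 1 plate. Low values came from different kinds of gene. Among the 78 general genes, those other than the tissue-restricted copies described below, 6 stayed under 10 CPM on both plates. They were Ndufb4 at 9.67 and 8.63 CPM, Atp5g1 at 7.68 and 8.74, Cox7c at 6.45 and 5.24, Atp5l at 4.14 and 2.92, Atp5g2 at 0.506 and 0.329, and Ndufs5 at 0.0865 and 0.0103 CPM. These are structural subunits of complexes I, IV and V that cells need, with Atp5g1 and Atp5g2 encoding the same mature c-ring protein as Atp5g3.

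Of the same 6 genes, all but Ndufs5 stood apart in sequence. Every 50-base window of the coding sequence of Atp5g2, Atp5l, Cox7c and Ndufb4, and 99.7% of those of Atp5g1, also occurred in another annotated gene of GENCODE M21, and no other gene at 10 CPM or more exceeded 72.9%. Ndufs5 shared 72.5% of its windows with the single row BC002163. That row held 19.4 and 13.1 CPM on the control and N1ICD-EGFP plates, far above the Ndufs5 row itself. The copies of Cox7c with rows, Gm10012 and Gm12338, together held 1.93 and 2.08 CPM on the plates, less than Cox7c itself. No copy with a row was found for Atp5g1, Atp5g2, Atp5l or Ndufb4. Uqcrb, with 72.9% of its windows shared, was at 65 and 37 CPM, so a partly shared sequence did not go with a low value in every gene. In all, 44 genes shared no window and 21 shared over 20%. The sources used here do not say how reads matching several genes were counted, and levels of these 21 genes are uncertain.

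**Figure D1:**
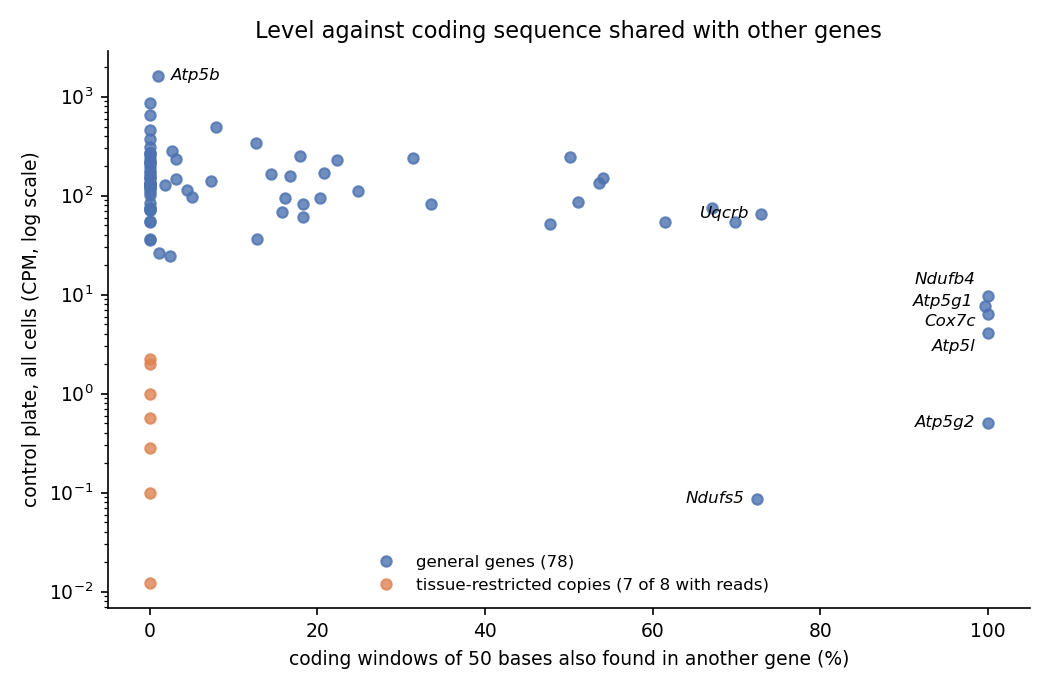
Level of each gene on the control plate (all cells, CPM, log scale) against the share of its 50-base coding windows that also occur in another annotated gene (%). The 5 genes at 99.7% or more and Ndufs5 lie under 10 CPM, and the tissue-restricted copies (orange; Cox7b2, with no reads, cannot be drawn) lie under 3 CPM with no shared window.

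Copies of subunits that belong to muscle, lung or testis were near zero in nearly all cells. Cox4i2, the lung form of subunit 4, was at 1.0 and 0.616 CPM beside 651 and 653 CPM of Cox4i1. Cox6b2, the testis form of subunit 6b, was at 2.01 and 0.164 CPM beside 256.4 and 228.02 CPM of Cox6b1. Cox7b2 had no read on either plate, Cox8c had 8 reads in 1 control cell and none on the N1ICD-EGFP plate, and Ndufa4l2, the hypoxia-linked copy of Ndufa4, had 23 reads in 2 control cells and none on the N1ICD-EGFP plate. The ubiquitous copies Cox6a1, Cox7a2, Cox7b and Cox8a ranged from 148.96 to 228.9 CPM on the control plate and from 105.4 to 161.8 CPM on the N1ICD-EGFP plate.

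The heart and skeletal muscle copies Cox6a2, Cox7a1 and Cox8b had higher summed levels on the N1ICD-EGFP plate, and most of their reads lay in 1 cell. Cox6a2 was at 0.0124 CPM on the control plate (1 read) and at 22 CPM on the N1ICD-EGFP plate, where the cell in well L23 held 1739 of 2142 reads. That cell also held 716 of the 746 reads of Cox8b and 69.8% of the 427 reads of Cox7a1. It had 47155 reads of the skeletal muscle actin Acta1 and 9764 of the muscle creatine kinase Ckm, and none of Krt8, Krt18, Kit or the eGFP row, and 8.11% of its 586465 reads were in the 86 genes, against at most 2.60% in any other N1ICD-EGFP cell. Without it Cox8b was at 0.310 CPM and Cox7a1 at 1.33 CPM, both below their control levels of 0.568 and 2.25 CPM. Cox6a2 kept 4.16 CPM, nearly all of it from 4 immune-like cells of the cluster with the B-cell genes Cd79a and Ms4a1.

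Over all cells, the 86 genes were 1.09 times lower on the N1ICD-EGFP plate, with 13986 and 13075 CPM in the sides of the control plate and 11895 and 13006 CPM in those of the N1ICD-EGFP plate, which do not overlap. Of the 77 genes at 5 CPM or more, 8 were at least 1.5 times lower and 3 at least 1.5 times higher, beside 16.7% and 22.5% of the 12021 genes at that level. The median log2 ratio (of CPM + 1) was -0.15 for the 77 genes and 0.07 for all 12021. Both shares, 8 and 3 of 77, were thus smaller than for genes at large.

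The 8 lower genes encode 5 accessory subunits of complex I (Ndufa7, Ndufb6, Ndufa1, Ndufb2 and Ndufc1), 2 small subunits of complex III (Uqcrb and Uqcr11) and Atp5g3, a c-ring gene. Of these, Uqcrb shared 72.9%, Ndufb2 51.1% and Uqcr11 33.6% of their coding windows with other genes, so their levels are uncertain. Ndufa7, which binds to the matrix arm of complex I, had the lowest ratio, at 236.2 CPM on the control plate (240.5 and 230.6 in its sides) and at 128.6 CPM on the N1ICD-EGFP plate (117.1 and 140.5), a log2 ratio of -0.87. Uqcrb, a subunit near the quinone site of complex III, was at 65 CPM on the control plate (68.9 and 59.9 in its sides) and at 37 CPM on the N1ICD-EGFP plate (30.6 and 43.7), a log2 ratio of -0.80. In both genes the N1ICD-EGFP sides lay below the control sides. The 3 higher genes were Cox6a2 and Cox8b, carried by the cell in well L23, and Atp5sl, an assembly gene of complex I despite its name, at 36.5 CPM on the control plate (40.5 and 31.2 in its sides) and at 58.1 CPM on the N1ICD-EGFP plate (56 and 60.2), a log2 ratio of 0.66.

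The same summed levels moved with the make-up of the plates. Hormone-sensing luminal-like cells, in which these genes were high, made up 19.5% of the control cells (exact binomial 95% interval 15.4 to 24.1%) and 2.47% of the N1ICD-EGFP cells (1.0 to 5.03%). The intervals cover the sampling of cells within a plate only. They leave out any spread between animals, sorts or plates, so they are no test between genotypes. With the hormone-sensing cells left out of both plates, the 86 genes were at 12076 CPM on the control plate (12308 and 11785 in the sides) and 12329 CPM on the N1ICD-EGFP plate (11693 and 12962), and none of the genes was 1.5 times lower. Ndufa7 then had a log2 ratio of -0.44 and Uqcrb of -0.52. Leaving out well L23 alone took the N1ICD-EGFP plate to 12027 CPM and lowered the higher genes from 3 to 1.

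In luminal progenitor/secretory-like cells, the class with most cells on both plates, the summed level of the pathway differed by less than the spread between the sides. The 86 genes were at 12454 CPM on the control plate (12864 and 11998 in the sides) and 12306 CPM on the N1ICD-EGFP plate (12011 and 12627), and the sides overlap. No gene of the 75 at 5 CPM or more was 1.5 times higher, and 1, Atp5g3, was 1.5 times lower, beside 22.2% higher and 15.9% lower among the 10992 genes at that level in this class. The median log2 ratio of the 75 was -0.05, beside 0.10 for the 10992. Well-covered genes at large were also steadier than weak ones, and at 50 CPM or more 17% of 5125 genes were 1.5 times higher and 10.8% lower, beside 0 and 1 of the 67 members at that level.

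The fold of 1.5 is a fixed size, and smaller differences were present. The 4 sides did not overlap for 15 of the 75 genes in the higher direction and 20 in the lower, beside 27.4% and 19.5% of all 10992 genes. Leaving the 86 genes out of the clustering changed which N1ICD-EGFP cells fell in this class, and 4 genes were then 1.5 times higher and 0 lower. In this class the luminal progenitor marker genes summed to 26826 CPM on the control and 11948 CPM on the N1ICD-EGFP plate, and the secretory marker genes to 45284 and 18913 CPM. Basal marker genes (9 and 10 of 10 with reads, Trp63 at 0 on the control plate) summed to 75.6 and 342.8 CPM, and immune marker genes (11 and 12 of 12, Cd3e at 0 on the control plate) to 35.6 and 148.4 CPM. The cells themselves thus differed in other genes, and the part of this difference in the values below was not tested.

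**Figure D2:**
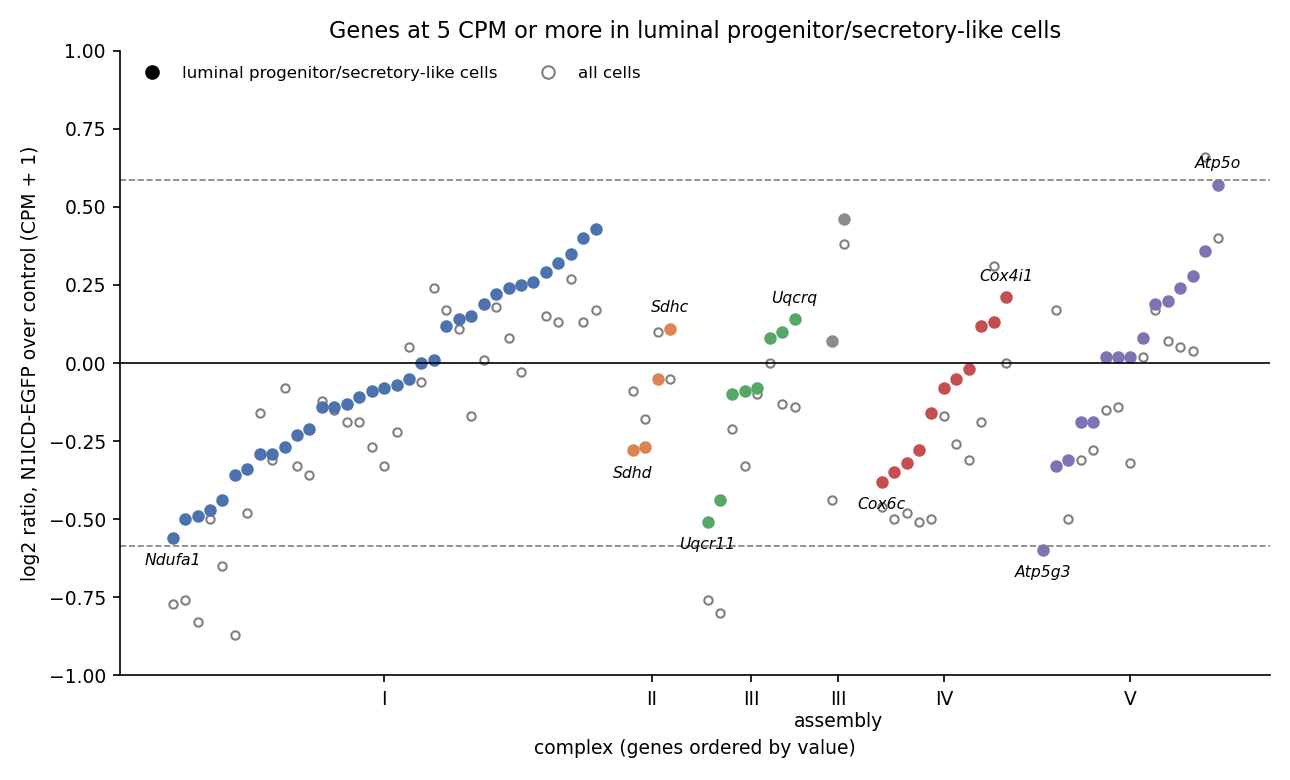
Log2 ratio of N1ICD-EGFP over control (CPM + 1) for the 75 genes at 5 CPM or more in luminal progenitor/secretory-like cells, ordered within each complex. Filled points are luminal progenitor/secretory-like cells, open points the same genes over all cells, and dashed lines mark 1.5 times. Among the filled points Atp5g3 at -0.60 is the only one past a dashed line, while open points of complexes I and III reach -0.87.

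Complex I was at 4287 CPM in control and 4201 CPM in N1ICD-EGFP luminal progenitor/secretory-like cells, with 14 of 35 genes above and 21 below a ratio of 1. Its nuclear core subunits form the arm in the matrix. Among those that carry electrons toward quinone, Ndufs8, which carries iron-sulfur clusters, was at 104.97 CPM on the control plate (102.9 and 107.3 in its sides) and at 124.4 CPM on the N1ICD-EGFP plate (123.1 and 125.9), a log2 ratio of 0.24. Ndufs7, which holds the last iron-sulfur cluster before quinone, was at 137.3 CPM on the control plate (124.6 and 151.4 in its sides) and at 164.5 CPM on the N1ICD-EGFP plate (160.2 and 169.2), a log2 ratio of 0.26. Ndufs3, of the same arm, had a log2 ratio of 0.25. For Ndufs7 and Ndufs8 the sides do not overlap, while those of Ndufs3 do.

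The 3 core subunits that oxidise NADH did not move together, with log2 ratios of 0.22 for Ndufv1, -0.11 for Ndufv2 and -0.21 for Ndufs1. Among the 27 accessory subunits at 5 CPM or more, 9 had ratios above 1 and 18 below. The lowest was Ndufa1, needed to assemble the membrane arm, at 53.8 CPM on the control plate (52.9 and 54.8 in its sides) and at 36.2 CPM on the N1ICD-EGFP plate (27 and 46.2), a log2 ratio of -0.56. Ndufb2 and Ndufb6, of the outer membrane arm, had log2 ratios of -0.50 and -0.49. The highest accessory subunit was Ndufa9, which holds NADPH at the junction of the arms, at 110.5 CPM on the control plate (106.3 and 115.1 in its sides) and at 145.97 CPM on the N1ICD-EGFP plate (156.7 and 134.3). None of these differences reached 1.5 times.

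Complex II was 1.13 times lower, at 888 CPM (914 and 859 in the sides) against 788 CPM (761 and 817). Sdha, the flavoprotein that oxidises succinate, held most of it, at 482 CPM on the control plate (501 and 462 in its sides) and at 399 CPM on the N1ICD-EGFP plate (359.6 and 441). Its sides do not overlap. Sdhb, the iron-sulfur subunit, had a log2 ratio of -0.05. The membrane anchors Sdhc and Sdhd went opposite ways, at 0.11 and -0.28, with overlapping sides.

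Complex III was at 1264 CPM (1300.0 and 1224) against 1229 CPM (1228 and 1229). The core proteins Uqcrc1 and Uqcrc2 and the Rieske protein Uqcrfs1 had log2 ratios of 0.08, -0.10 and -0.08, within the spread of the sides. Of the small subunits, Uqcr11 was at 72.2 CPM on the control plate (73 and 71.2 in its sides) and at 50.2 CPM on the N1ICD-EGFP plate (47.5 and 53.2), a log2 ratio of -0.51, and Uqcrb had -0.44. Uqcc1, which with Uqcc2 helps to make cytochrome b, was at 55.1 CPM on the control plate (42.8 and 68.7 in its sides) and at 76.3 CPM on the N1ICD-EGFP plate (73.2 and 79.7), a log2 ratio of 0.46. Uqcc2 was at 14.9 CPM on the control plate (15.7 and 14.1 in its sides) and at 15.7 CPM on the N1ICD-EGFP plate (12.9 and 18.7).

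Complex IV was at 1869.9 CPM (1971 and 1757) against 1868 CPM (1754 and 1992). Its most abundant gene Cox4i1 was at 568 CPM on the control plate (571 and 563 in its sides) and at 659 CPM on the N1ICD-EGFP plate (636 and 683), a log2 ratio of 0.21 and the highest in the complex. Cox6c, Cox7b and Cox5a, which surround the catalytic core, had log2 ratios of -0.38, -0.35 and -0.32, and for Cox5a the sides overlap. Cox6c and Cox5a shared 53.6% and 20.8% of their coding windows with other genes. Cox7a2l was classed here as a supercomplex factor, for supercomplexes of complexes III and IV. Whether its product links these complexes in mice of this strain was not tested. Cox7a2l was at 177.1 CPM on the control plate (186.9 and 166.3 in its sides) and at 193.7 CPM on the N1ICD-EGFP plate (202.5 and 184.04).

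Complex V was at 4075 CPM (4197 and 3939) against 4128 CPM (4164 and 4090.0). The 5 subunits of the catalytic head had log2 ratios of 0.02 to 0.24, and Atp5b was at 1377 CPM on the control plate (1436 and 1312 in its sides) and at 1401 CPM on the N1ICD-EGFP plate (1429 and 1370.5). The lowest and highest of all 75 ratios both belonged to complex V. Atp5g3, a c-ring gene, was at 185.2 CPM on the control plate (194.3 and 175.1 in its sides) and at 121.5 CPM on the N1ICD-EGFP plate (109.9 and 134.04), a log2 ratio of -0.60. Atp5o, which ties the stalk to the head, was at 101.9 CPM on the control plate (108.1 and 95.1 in its sides) and at 151.9 CPM on the N1ICD-EGFP plate (144.7 and 159.7), a log2 ratio of 0.57, with 24.9% of its windows shared with another gene.

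Small and large proteins differed in these ratios. In luminal progenitor/secretory-like cells, 13 of the 43 genes with a coding sequence under 500 bases had a ratio above 1 and their median log2 ratio was -0.14. Of the 32 genes with longer coding sequences 20 had a ratio above 1, with a median of 0.05. All genes in this class showed the same order, with medians of 0.02 for 874 short genes and 0.12 for 9785 longer ones. Spearman's rho between coding length and log2 ratio was 0.36 across the 75 genes and 0.01 across the 10659 genes with a length, and for the GC content of the transcript it was 0.30 and 0.23. Genes within a plate are not independent, and the part of length and GC content in the ratios was not tested.

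A larger contrast in these genes lay between cell classes of 1 plate. On the control plate, the 86 genes were at 17992 CPM in the 65 hormone-sensing luminal-like cells (18452 and 17286 in the sides), which carry the estrogen and progesterone receptors, and at 12454 CPM in the luminal progenitor/secretory-like cells (12864 and 11998), 1.44 times higher. Of 75 genes, 33 were at least 1.5 times higher and 1 at least 1.5 times lower, beside 27.7% and 28.4% of the 11117 genes at 5 CPM or more, and the median log2 ratios were 0.52 and 0.02. The classes were clustered on variable genes of which members could be part. Leaving the 86 genes out of the clustering left the same number of cells in each control class. Whether they were the same cells was not compared, and genes that vary with the members could still shape the classes.

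The hormone-sensing cells were also richer in genes, with a median of 5400 genes and 328814 reads per cell against 3452 genes and 235960 reads. With each cell thinned to 50000 reads, the share of reads in the 86 genes had a median of 1.81% per hormone-sensing cell and 1.22% per luminal progenitor/secretory-like cell. Cells of very high gene number could be doublets, and 34 of the 65 hormone-sensing cells passed the plate's limit on gene number, 3 median absolute deviations over its median. Without all such cells the difference was smaller, with a log2 ratio of 0.46 in place of 0.53. Ribosomal proteins of the cytosol, another large set of housekeeping genes, went the other way, with 2 of 76 higher and 47 lower. They were at 20665 CPM in luminal progenitor/secretory-like and 11188 CPM in hormone-sensing cells. Within the pathway, 43 genes with a coding sequence under 500 bases had a median log2 ratio of 0.69, and 32 longer ones 0.35. All genes showed the same order, with medians of 0.18 for 886 short genes and 0.01 for 9908 longer ones. The part of length in this contrast was not tested.

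**Figure D3:**
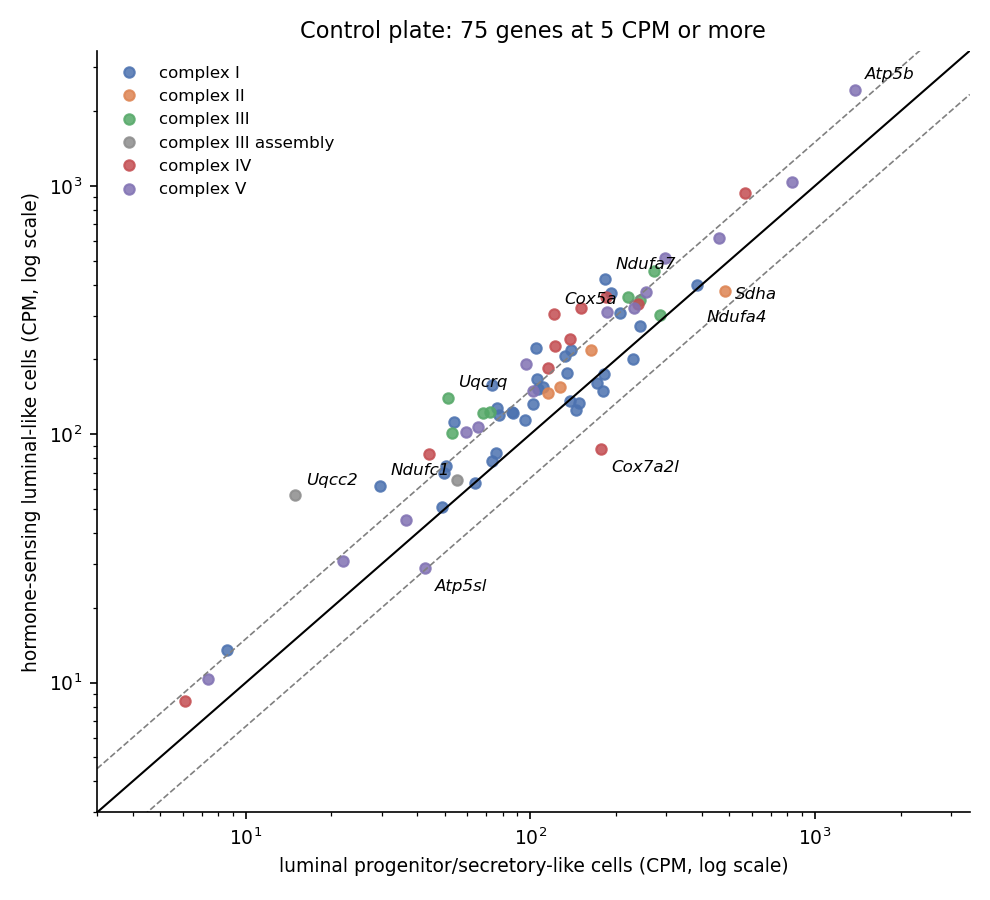
Level of each of the 75 genes in the 65 hormone-sensing luminal-like cells against the luminal progenitor/secretory-like cells of the control plate (CPM, log scales), coloured by complex; the solid line is equality and the dashed lines 1.5 times. Uqcc2, Uqcrq, Cox5a and Ndufa7 lie above the upper line and Cox7a2l alone below the lower one.

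The complexes differed in how much higher they were. Complex IV was 1.66 times higher (1869.9 against 3096 CPM), complexes III and V both 1.54 times and complex I 1.32 times, while complex II stood at 888 (914 and 859 in the sides) against 899 CPM (891 and 911). Within complex II Sdha was at 482 CPM in luminal progenitor/secretory-like cells (501 and 462 in the sides) and 378.3 CPM in hormone-sensing cells (369.2 and 392), a log2 ratio of -0.35. Sdhb, Sdhc and Sdhd had log2 ratios of 0.42, 0.29 and 0.35 and sides that do not overlap. The level sum thus held differences of opposite sign.

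Uqcc2 had the largest ratio, at 14.9 CPM in luminal progenitor/secretory-like cells (15.7 and 14.1 in the sides) and 56.8 CPM in hormone-sensing cells (61 and 50.3), 3.81 times higher. Its reads were found in 78.5% of hormone-sensing and 27.2% of luminal progenitor/secretory-like cells thinned to 50000 reads. Its partner Uqcc1 had a log2 ratio of 0.24 with overlapping sides. All 5 small subunits of complex III passed 1.5 times, led by Uqcrq, which binds next to cytochrome b, at 51.3 CPM in luminal progenitor/secretory-like cells (50.1 and 52.6 in the sides) and 140.2 CPM in hormone-sensing cells (150.4 and 124.5). Of the larger subunits Uqcrc1 passed it at 0.73, and Uqcrfs1 and Uqcrc2 did not, at 0.52 and 0.08.

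In complex IV, 8 of the 10 general subunits passed 1.5 times, beside 27.7% of all 11117 genes. Cox5a, a matrix-side subunit, was at 121.1 CPM in luminal progenitor/secretory-like cells (136.7 and 103.7 in the sides) and 304.1 CPM in hormone-sensing cells (290.4 and 325.1), 2.51 times higher. Cox8a and Cox6a1 had log2 ratios of 1.09 and 0.95, while Cox6b1 and Cox7c did not reach the fold at log2 ratios of 0.48 and 0.41. Cox7a2l was the only gene 1.5 times lower, at 177.1 CPM in luminal progenitor/secretory-like cells (186.9 and 166.3 in the sides) and 87.5 CPM in hormone-sensing cells (91.2 and 81.8), 2.02 times lower. Cox7a2, the complex IV subunit that it resembles, was at 138.1 CPM in luminal progenitor/secretory-like cells (141.1 and 134.8 in the sides) and 241.5 CPM in hormone-sensing cells (235.3 and 251.1), so the members of this pair differed in opposite directions. Cox7a2l shared 54.1% of its coding windows with another gene, Cox6a1 22.3% and Cox5a 20.8%, so their levels are uncertain.

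In complex I, 12 of 35 genes passed 1.5 times, beside 27.7% of all 11117 genes. Ndufa7 was at 183.6 CPM in luminal progenitor/secretory-like cells (183.7 and 183.5 in the sides) and 420.1 CPM in hormone-sensing cells (419.5 and 421), and Ndufs8, a core subunit, at 104.97 CPM in luminal progenitor/secretory-like cells (102.9 and 107.3 in the sides) and 222.2 CPM in hormone-sensing cells (229.4 and 211.1). Other members were level, among them Ndufa4 at a log2 ratio of 0.06, Ndufa10 at -0.05 and Ndufs7 at -0.01. In complex V, 6 of 15 passed, beside the same 27.7%. Among them, Atp5b was at 1377 CPM in luminal progenitor/secretory-like cells (1436 and 1312 in the sides) and 2439 CPM in hormone-sensing cells (2440.0 and 2437). Atp5e, the small epsilon subunit of the head, had a log2 ratio of 0.98. The alpha subunit gene Atp5a1, whose protein pairs with that of Atp5b in equal number, was at 0.31.

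The N1ICD-EGFP plate had only 7 hormone-sensing cells, 6 of them in well columns 1 to 12. There the 86 genes were at 16319.6 CPM, 1.33 times the level in luminal progenitor/secretory-like cells of that plate, with 25 of 75 genes 1.5 times higher and 9 lower beside 28.3% and 46% of 11104 genes. Of the 33 genes that were 1.5 times higher on the control plate, 31 had a ratio above 1 here and 20 passed 1.5 times. The same count was not made over all genes, so these 33 cannot be set against genes at large. Uqcc2 had a log2 ratio of 1.26, Cox5a of 1.26 and Cox7a2l of -1.64. Other genes had ratios of opposite sign on the plates. Uqcc1 had -1.16 here against 0.24 on the control plate, and the membrane anchors Sdhc and Sdhd of complex II had -0.76 and -0.77 against 0.29 and 0.35. Uqcrh, the hinge protein, had -0.48 against 0.69, and Sdha 0.47 against -0.35. The 9 genes 1.5 times lower here included Uqcc1, Sdhc and Sdhd. Values from 7 cells are uncertain, and the difference between plates was not tested.

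**Figure D4:**
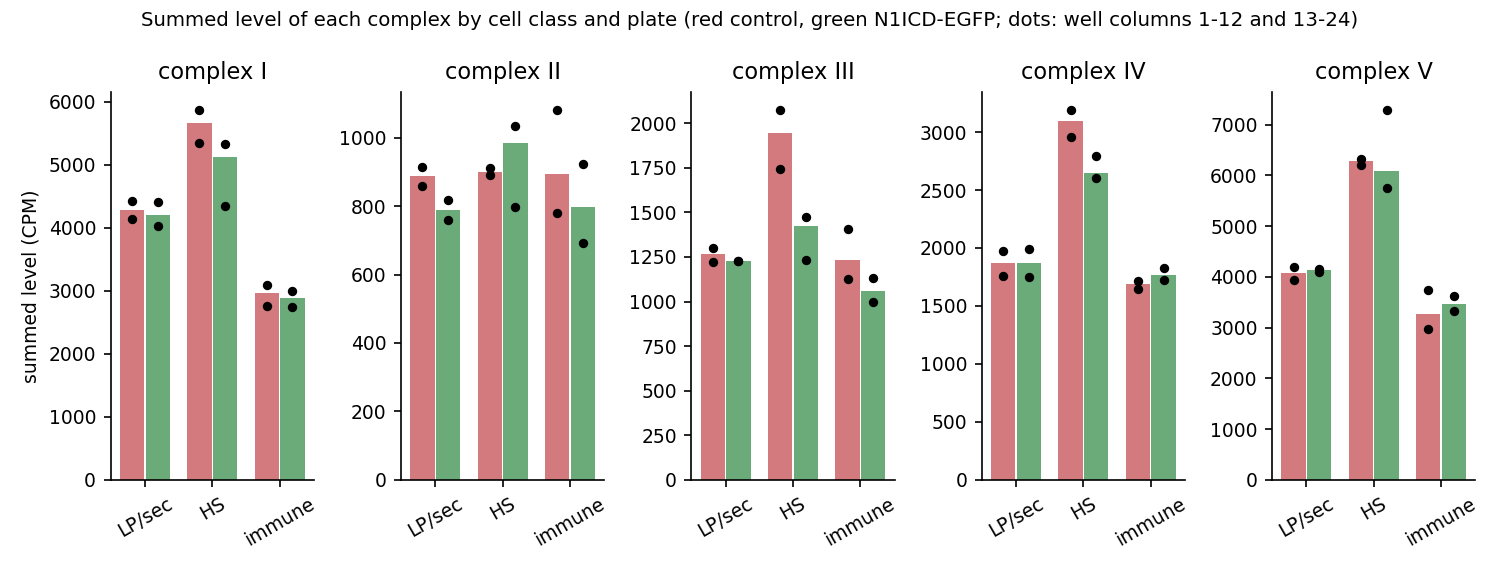
Summed level of each complex (CPM, bars from 0) in luminal progenitor/secretory-like (LP/sec), hormone-sensing luminal-like (HS) and immune-like cells of the control (red) and N1ICD-EGFP (green) plates; dots are the 2 sides of each plate. The bars of complexes I, III, IV and V are higher in hormone-sensing cells of both plates, although on the N1ICD-EGFP plate the sides overlap those of LP/sec for complex I, while complex II is at 888 and 899 CPM in the first 2 control classes.

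Immune-like cells had the lowest level of the named classes, at 10063 CPM on the control plate (9709.8 and 10639 in the sides) and 9995 CPM on the N1ICD-EGFP plate (10270.1 and 9768). Complex I was 1.45 and 1.46 times lower than in luminal progenitor/secretory-like cells of the same plate, and complex V 1.25 and 1.19 times lower. Complex II was level, at 894 and 797 CPM. The immune-like cells of the N1ICD-EGFP plate fell into 3 clusters, with B-cell, T-cell and macrophage genes, at 10069, 12573 and 9036 CPM from 25, 8 and 15 cells. The 7 basal-like control cells were at 11697 CPM.

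Among luminal progenitor/secretory-like cells, single cells varied more than the plates did. The share of a cell's reads in the 86 genes had a median of 1.21% on the control plate (range 0.442 to 2.07%) and 1.21% on the N1ICD-EGFP plate (0.454 to 2.28%) before thinning, and the middle 50% of cells lay between 1.08 and 1.38% and between 0.987 and 1.40%. With each cell thinned to 50000 reads the medians were both 1.22%, the ranges 0.402 to 2.05% and 0.474 to 2.26%, and the middle 50% lay between 1.07 and 1.39% and between 0.996 and 1.38%. The clusters that made up the class were alike, at 12118 to 12583 CPM for the 3 control clusters and 12016 to 13404 CPM for the 3 N1ICD-EGFP clusters. The highest was the N1ICD-EGFP cluster of 28 cells, with complex III at 1555 CPM against 1249 and 1089 CPM in the other clusters. Summed casein and lactoferrin reads did not track the share across cells (Spearman's rho 0.00 on the control and -0.02 on the N1ICD-EGFP plate, cells thinned to 50000 reads), and rho between pairs of complexes was at most 0.29.

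**Figure D5:**
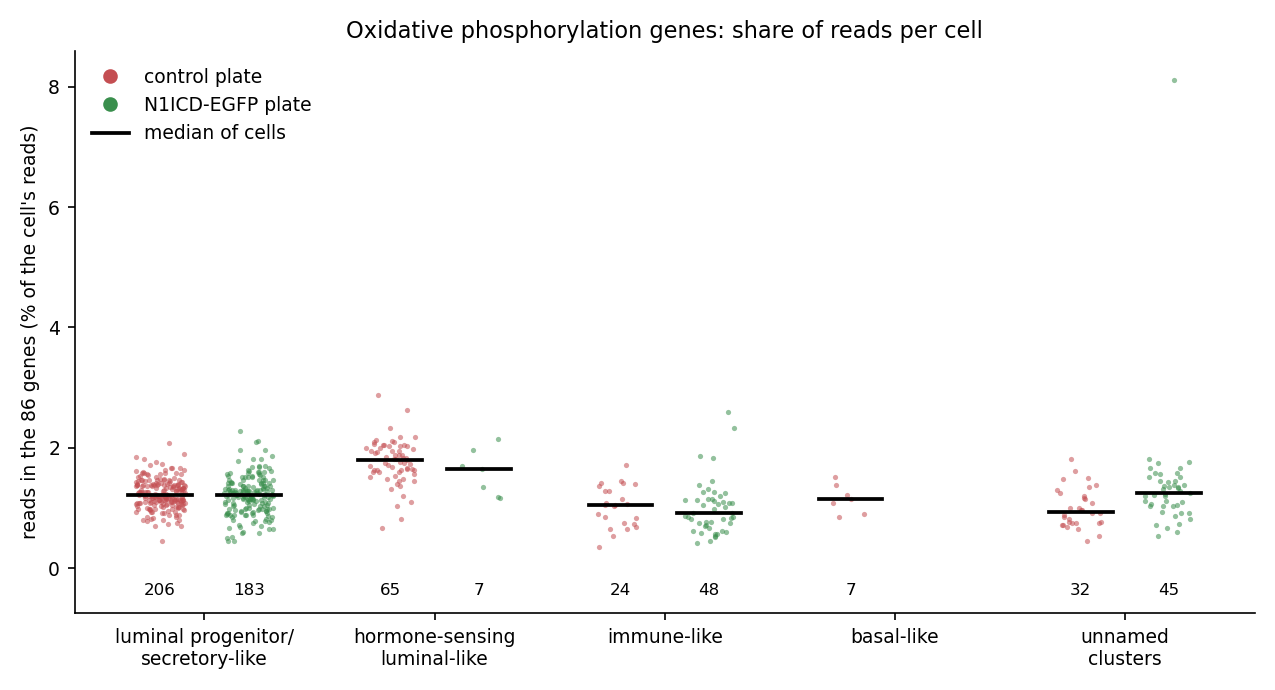
Share of each cell's reads in the 86 genes (%, before thinning) by class and plate; points are cells, black lines medians, numbers under the points the cells in each group. Hormone-sensing cells of the control plate centre on 1.8% and luminal progenitor/secretory-like cells of both plates on 1.21%, and the 1 point at 8.11% is well L23.

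A pair of genes 1.5 times higher in hormone-sensing cells (Uqcc2 and Cox5a), the only lower one (Cox7a2l) and the member whose promoter held every motif searched (Atp5j, the coupling factor 6 subunit of the stalk) are represented by the 250 bases before a RefSeq transcript start (GRCm38.p6). Nuclear respiratory genes are textbook targets of NRF1, of the ETS factor GABP (NRF2) and of YY1, and 7-letter cores were searched on both strands in this window: GCATGCG for NRF1, CCGGAAG for ETS factors and ATGGCGG for YY1. Capitals mark matches. For a gene with several windows the one with most matches was taken. The window of Atp5j is chr16:84834977-84835226 on the minus strand, that of Uqcc2 chr17:27133892-27134141 on the minus strand, that of Cox5a chr9:57520982-57521231 on the plus strand and that of Cox7a2l chr17:83514334-83514583 on the minus strand.
Atp5j: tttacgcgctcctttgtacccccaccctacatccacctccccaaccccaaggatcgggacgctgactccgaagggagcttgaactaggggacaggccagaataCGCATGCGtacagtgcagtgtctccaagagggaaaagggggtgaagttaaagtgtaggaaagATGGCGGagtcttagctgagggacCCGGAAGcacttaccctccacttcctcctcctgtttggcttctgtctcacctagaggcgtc
Uqcc2: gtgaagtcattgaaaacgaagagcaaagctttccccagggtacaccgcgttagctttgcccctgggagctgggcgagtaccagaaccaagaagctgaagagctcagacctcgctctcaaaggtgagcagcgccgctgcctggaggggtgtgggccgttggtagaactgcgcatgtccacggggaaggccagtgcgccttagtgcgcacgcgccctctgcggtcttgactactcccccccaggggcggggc
Cox5a: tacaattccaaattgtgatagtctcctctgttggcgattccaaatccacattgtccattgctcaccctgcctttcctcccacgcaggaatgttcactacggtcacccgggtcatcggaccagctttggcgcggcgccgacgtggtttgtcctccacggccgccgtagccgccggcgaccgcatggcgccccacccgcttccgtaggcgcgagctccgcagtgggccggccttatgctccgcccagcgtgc
Cox7a2l: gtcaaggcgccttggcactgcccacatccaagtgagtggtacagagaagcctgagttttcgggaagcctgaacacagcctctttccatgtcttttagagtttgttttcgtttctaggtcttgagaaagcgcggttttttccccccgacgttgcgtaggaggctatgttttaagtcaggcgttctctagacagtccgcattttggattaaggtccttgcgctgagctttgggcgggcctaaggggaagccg

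Atp5j, at 296.8 and 239.9 CPM in luminal progenitor/secretory-like cells of the plates and 0.78 in log2 ratio between the control classes, held 2 overlapping matches to the NRF1 core, 1 to the ETS core and 1 to the YY1 core, and the windows of Uqcc2, Cox5a and Cox7a2l held none. RefSeq promoters were found for 71 of the 86 genes. The NRF1 core lay in those of 9 members (12.7%) and of 3.43% of the 27025 genes with a promoter. The ETS core lay in 12 (16.9%, against 7.83%) and the YY1 core in 5 (7.04%, against 2.58%). At least 1 of the 3 cores was present in 9 of 27 members that were 1.5 times higher in hormone-sensing cells and in 11 of 37 that were not. Over all 27025 genes the share was 12.8%. Those genes were not matched to the members for GC content, level or number of windows. Whether the cores are particular to the pathway was not tested.

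Genes around the pathway were examined in the luminal progenitor/secretory-like cells from lists of assembly factors, carriers and neighbouring pathways. Of 14 complex I assembly factors 6 were 1.5 times higher on the N1ICD-EGFP plate and 2 lower, and the largest ratio belonged to Ndufaf7, a methyltransferase that is needed for complex I, with 21.1 against 67.2 CPM (log2 ratio 1.62). Ecsit and Foxred1, also assembly factors, had log2 ratios of 1.24 and 1.10. Of 26 assembly factors of complexes II to V 5 were higher and 7 lower, with Atpaf2, the chaperone of the ATP synthase alpha subunit, at 33.9 against 75.6 CPM and Ttc19, a complex III factor, at 26.9 against 8.20 CPM. These counts stand beside 22.2% higher and 15.9% lower of all genes, and many of these genes lie under 50 CPM.

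The counts of this paragraph also stand beside 22.2% higher and 15.9% lower of all genes. Among regulators of mitochondrial genes 6 of 13 were 1.5 times higher and 1 lower. Ppargc1a, the coactivator PGC-1alpha, was at 3.70 against 28 CPM (log2 ratio 2.63), Polrmt, the mitochondrial RNA polymerase, at 22.7 against 52.3 CPM, and Gabpb1, a subunit of the factor GABP, at 66.4 against 40.8 CPM. Mitochondrial fatty acid oxidation had 4 of 13 genes higher and none lower, among them Acads at 24.4 against 50.5 CPM, Acaa2 at 299.03 against 499.5 CPM and Hadha at 179.7 against 297.98 CPM. In the tricarboxylic acid cycle list 3 of 22 were higher and 2 lower, with the pyruvate dehydrogenase kinase gene Pdk4 at 679 against 1493 CPM and the pyruvate dehydrogenase gene Dlat at 96.8 against 47.9 CPM. The glucose transporter gene Slc2a1 at 103.6 against 41.5 CPM, the monocarboxylate transporter gene Slc16a1 at 43.5 against 15.5 CPM and Ldha at 543 against 342.1 CPM were the 3 lower genes of 16 in the glycolysis list, against 1 higher. For each gene named in this paragraph the sides of the plates do not overlap.

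Mitochondrial ribosomal proteins had 10 of 75 genes higher and 4 lower (median log2 ratio 0.23), and the import machinery 2 of 18 higher and 2 lower (-0.12). Subunits and carriers of the pathway that the name rule misses, such as Cyc1 and Cycs, had 1 of 11 higher, the electron carrier Etfb at 89.2 against 159.2 CPM, and 1 lower (-0.06). Carriers of the inner membrane had 2 of 13 higher and 2 lower. Beside these counts stand the same 22.2% higher and 15.9% lower of all genes. Between the control classes, the same lists had medians of 0.04 for complex I assembly, 0.11 for the other assembly factors and 0.10 for mitochondrial ribosomes. The medians were 0.21 for the tricarboxylic acid cycle, 0.28 for inner membrane carriers, 0.26 for import and 0.13 for glycolysis. Subunits and carriers that the name rule misses had 0.22, with 5 of 11 higher and 1 lower, beside 27.7% and 28.4% of all genes. Fatty acid oxidation had -0.06 and the regulators -0.13. The 75 genes of the pathway itself had 0.52.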

How the data were processed

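The deposited values were whole-number read counts per gene and cell, aligned with STAR to mm10 per the submitters' processing notes; the sources used here give no version, counting tool or rule for reads that match several genes. The authors' tables had 24490 rows each, and 492 repeated names were summed. Cells with at least 50000 reads and 1000 genes were kept. They numbered 334 (control) and 283 (N1ICD-EGFP), and 206 and 183 of them were luminal progenitor/secretory-like. Each plate was clustered with scanpy 1.11.5 (2000 variable genes, 15 principal components, 15 neighbours, Leiden resolution 0.8), and clusters were named from marker lists, a name needing 3 raised markers. No doublet caller was run. Levels are CPM of summed reads, folds are log2 ratios of CPM + 1, and a gene counted as higher or lower past 1.5 times among genes at 5 CPM or more. With 1 plate per genotype no test was made. Shares of cells with reads of a gene are given after thinning to 50000 reads per cell, and shares of a cell's reads before thinning unless stated. Coding windows, lengths and GC content came from GENCODE M21. The fold rule was tested on simulated data. The values of 1 member are not reported here, though its reads are counted in the sums.

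Every member could be named; full values were given for the most abundant member of each complex, the members at 20 CPM or more with the highest and lowest ratios, duplicated subunits, complex II and the Uqcc genes. For the other lists, up to 3 genes past 1.5 times in each direction and at 20 CPM or more were eligible. The members, lists and comparisons were chosen with earlier results of these data known. Alternatives were other cell and gene filters, scalings, pseudocounts, clusterings, weightings and the sides of the plates (well columns 1 to 12 and 13 to 24). The alternatives that left out hormone-sensing cells, well L23, 1 cluster or genes with shared windows were chosen after the data had been seen.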

Additional observations from a re-analysis of the deposited data

How the results depend on the processing

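Among settings, the log2 ratio of the 86 genes over all cells (-0.13) was -0.08 with either cell filter, -0.03 without possible doublets, -0.15 with median-of-ratios and -0.22 with upper quartile scaling, -0.10 with thinning or the mean of cells, -0.23 and -0.01 in well columns 1 to 12 and 13 to 24, -0.09 without immune-like cells, -0.20 without unnamed clusters, -0.18 without well L23 and -0.12 without genes sharing windows. It turned to 0.03 without hormone-sensing cells. The 3 higher genes became 5 with the stricter filter, 0 and 5 in the sides, and 1 without unnamed clusters or well L23. The 8 lower became 13 with upper quartile scaling, 4 with thinning, 18 and 3 in the sides, 0 without hormone-sensing cells and 5 without genes sharing windows.

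In luminal progenitor/secretory-like cells the ratio (-0.02) was 0.10 and 0.01 with the stricter and looser filter, -0.11 and -0.13 with the scalings, -0.02 with thinning, -0.03 with the mean of cells, -0.10 and 0.07 in the sides, 0.05 at resolution 0.5, -0.03 with joint clustering, 0.04 with members left out of it and -0.04 without the N1ICD-EGFP cluster of 28 cells. Upper quartile scaling moved the median of all genes by 0.11 here. Higher genes (0) became 5 and 1 with the filters, 1 with thinning, the mean of cells or without that cluster, 2 and 3 in the sides, 4 at resolution 0.5 or with members left out, and 2 with joint clustering. Lower genes (1) became 0 with either filter, in columns 13 to 24, at resolution 0.5 and with members left out. They became 2 without possible doublets, at 1 CPM, with joint clustering or without that cluster, 5 with either scaling and 11 in columns 1 to 12. The cause was not tested.

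Between the control classes the ratio (0.53) was 0.55 with the stricter filter, 0.46 without possible doublets, 0.50 with median-of-ratios scaling and 0.52 with thinning, the mean of cells or columns 1 to 12, and the lower genes (1) became 2 without possible doublets, with thinning, the mean of cells or columns 1 to 12. The 33 higher genes ranged from 31 to 37. The lists together had 81 genes past 1.5 times, and 83 at 1 CPM. Depth limits genes under 5 CPM, and 7 N1ICD-EGFP hormone-sensing cells limit that class.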
